A study of Salmo salar with 12 samples.

Results

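A CpG carries 1 cytosine on each DNA strand. In 22 of 37090 CpG pairs of the Atlantic salmon methylomes (0.0593%), 1 cytosine was read as mostly methylated and the other as much less methylated. The pairs were chosen by their pooled levels. The files list single cytosines without their strand, so a pair was taken as 2 listed cytosines at adjacent positions with no listed cytosine directly before or after them. Both had to be listed in all 12 libraries, which left 37090 eligible pairs of 2468443 listed in any library. The position p was taken as the forward cytosine and p+1 as the reverse cytosine. Both the strands and the CpG rest on adjacency alone, since no base was checked against the assembly. The methylation level is the share of reads that kept the cytosine, in percent, summed over the 12 libraries, and a pair was kept where its 2 levels differed by 50 percentage points or more. Because these pooled differences chose the pairs, they are given as a description, with no test.

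Bisulfite converts unmethylated cytosines so that they are sequenced as T, and the 2 strands of a CpG are then read from separate molecules. In vertebrates a CpG is normally methylated on both strands or on neither, since UHRF1 recognises the sites that replication leaves methylated on the old strand alone and DNMT1 copies the mark to the new strand. A T in place of the C on a strand is read as an unmethylated cytosine there. The same change also takes the opposite cytosine out of the CpG context, where vertebrate cytosines are mostly unmethylated, so such an allele would be read as low on both strands. This describes a change to T alone. Other base changes are not described here, and no sequence variant was tested.

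The libraries are whole-genome bisulfite sequencing of liver, ovary and pituitary from female Atlantic salmon of a single management group. T1 fish were taken immediately before a long-light photoperiod that stimulates maturation and T4 fish at the last sampling during it. There were 2 libraries per tissue and time. T1 and T4 fish are different animals, so time and fish cannot be told apart. Titles give a fish code per library, and 6 codes in all. For the 2 ovary T1 libraries the file names give the opposite codes, so the comparison between fish used the other 10 libraries. The libraries list 9063730 to 12056957 cytosines with 10 or more reads each and a median of 14 to 15 reads. Pituitary T1 replicate 1 lists no cytosine over 150 reads, against 13515 to 21326 such cytosines in the other 11 libraries. Most listed cytosines stood without their partner: 16693399 of 21901728 positions had no listed neighbour on either side. Log2 coverage of cytosines 2 bp apart correlated at 0.968 to 0.976 within a library, and at only 0.384 to 0.619 for cytosines 1 bp apart, which lie on opposite strands.

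The 2 cytosines of most eligible pairs had similar levels, and the pairs of 50 points or more were the end of a long tail. The median absolute difference over all 37090 pairs was 2.50 points and the 99th percentile 14.1, and 96.5% of pairs were within 10 points. There were 1155 pairs from 10 to under 20 points, 76 from 20 to under 30, 24 from 30 to under 40 and 12 from 40 to under 50. Among the 22 pairs the higher cytosine had a pooled level of 65.2% to 96.0%, with a median of 82.0%, close to the median of 88.4% over all eligible cytosines. The lower cytosine had 1.74% to 35.6%, with a median of 11.1%, and was under 10% in 9 pairs. Just inside the threshold were AGKD04009687.1 at 8394, with 51.6 points, and CM003305.1 at 20630219, with 54.2 points. Just outside were CM003282.1 at 1035994, with 49.998 points, and CM003284.1 at 23083992, with 44.8 points.

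**Figure D1:**
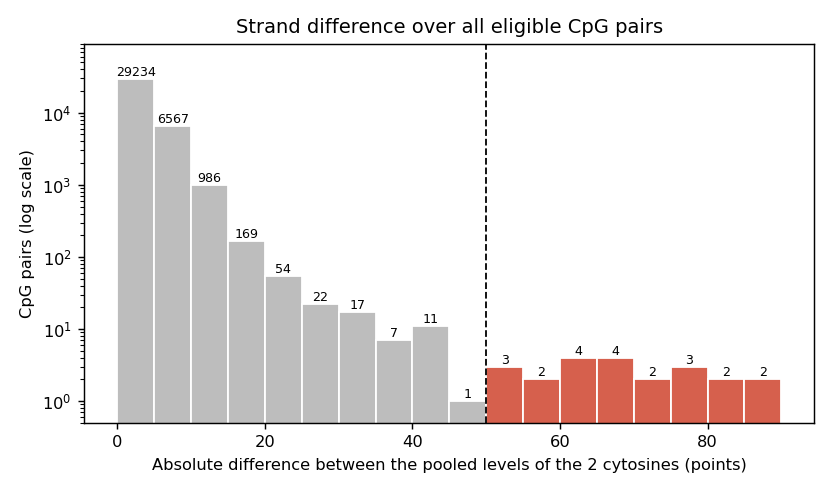
Absolute difference between the pooled levels of the 2 cytosines (x axis, percentage points) against the number of CpG pairs (y axis, log scale), in bins of 5 points, for 37090 eligible pairs. Red bars right of the dashed line are the 22 pairs of 50 points or more, which form a flat tail of 2 to 4 pairs a bin.

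The forward cytosine was higher in 11 pairs and the reverse cytosine in 11. Pairs within 200 bp of each other were counted as a locus, which gave 16 loci. Of these, 5 held more than 1 pair, with 11 pairs between them, and no locus held pairs of both directions. On the assembled chromosomes lay 16 pairs, on 8 sequences, and the other 6 lay on unplaced sequences. The chromosomes held 72.7% of the 22 pairs and 78.3% of all eligible pairs. Coordinates are those of the ICSASG_v2 assembly. No annotation of that assembly was used here, so no pair is assigned to a gene.

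The largest difference with the reverse cytosine higher was at CM003291.1, 59423538 to 59423539. The forward cytosine was methylated in 1.74% of 288 reads (95% Wilson interval 0.744 to 4.00) and the reverse cytosine in 90.8% of 272 reads (86.8 to 93.7). The forward level was 0% in 7 libraries, and in the other 5 it was 5% in liver T1 replicate 1, 5% in ovary T1 replicate 2, 5.26% in pituitary T1 replicate 1, 3.45% in pituitary T1 replicate 2 and 3.12% in pituitary T4 replicate 2. Reverse levels ran from 82.6% in ovary T1 replicate 1 through a median of 90.7% to 100.0% in liver T4 replicate 2 and pituitary T1 replicate 1. The 2 cytosines were therefore at least 77.3 points apart between any libraries, and the strand difference had the smallest range of all 22 pairs, 18.3 points.

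The largest difference with the forward cytosine higher was at CM003285.1, 13148440 to 13148441, where pooled levels were 90.6% of 160 reads and 3.49% of 545 reads. The higher cytosine ran from 80% to 100% over the 12 libraries with a median of 91.6%, and the lower from 0% to 10.4% with a median of 2.33%. This pair exceeded 3 times the library's median coverage in at least 1 library. So did 11 of the 22 pairs (50%), against 36.2% of eligible pairs, and the part of coverage in the differences was not tested.

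Among pairs within that coverage limit, AGKD04014909.1, 17405 to 17406, had the largest difference with the forward cytosine higher. Its forward cytosine was methylated in 79.1% of 153 reads (72.0 to 84.8) and its reverse cytosine in 5.90% of 288 reads (3.72 to 9.25). Forward levels ran from 50% in liver T4 replicate 1 through a median of 79.5% to 100.0% in ovary T4 replicate 2. Reverse levels ran from 0% in 4 libraries to 14.3% in ovary T4 replicate 1. No library of the lower cytosine reached a library of the higher cytosine.

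At every pair the same cytosine was the higher in all 12 libraries. The rule fixes the pooled direction but not that of each library, and 371 of the 37090 eligible pairs (1%) had 1 direction throughout. In 20 of the 22 pairs every library of the higher cytosine lay above every library of the lower, against 0.218% of eligible pairs. Both are measures from the same reads as the rule, so nothing is read from these shares. Of the 264 values of a pair in a library, 230 (87.1%) were 50 points or more and none was 0 or below. The lowest was 7.14 points and the highest 100.0, and 10 pairs kept 50 points or more in all 12 libraries. Per library, 18 to 21 of the 22 pairs reached 50 points and the median difference was 59.9 to 75.1 points. Of all eligible pairs, 0.0971% to 0.170% differed by 50 points or more in a library, in either direction. These counts also come from the reads that the rule used, so nothing is read from them. Lower cytosines were under 10% in 130 of the 264 values, 10 to under 30% in 92, 30 to under 50% in 40 and higher in 2.

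**Figure D2:**
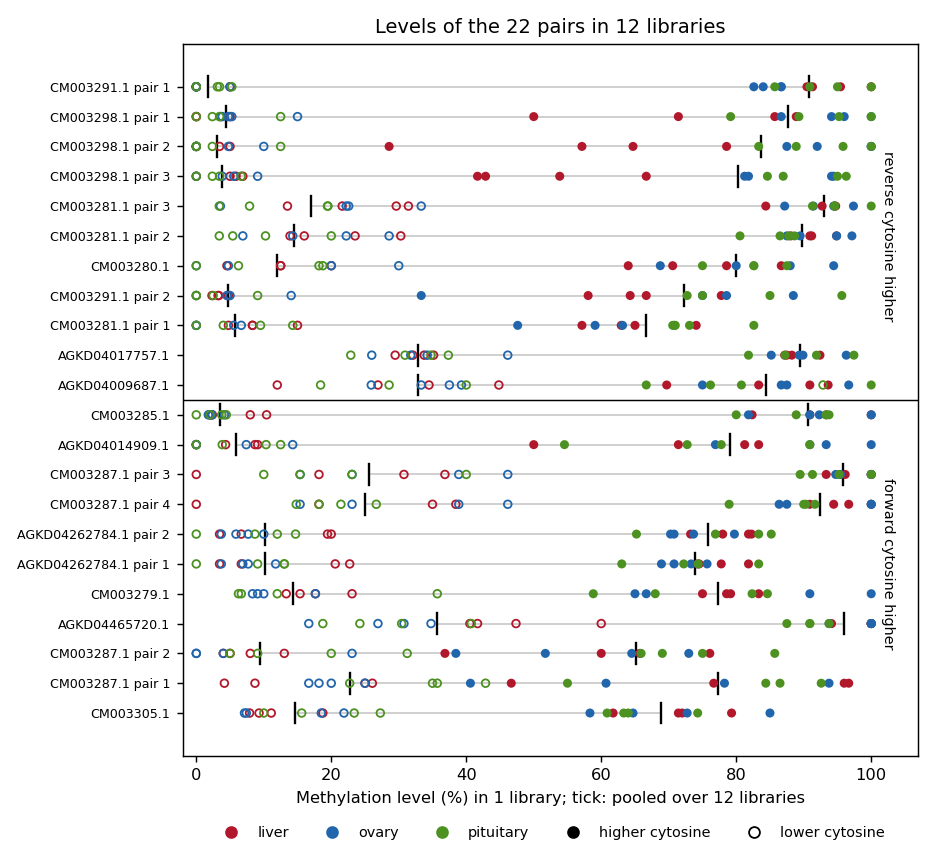
Methylation level (x axis, %) of the higher cytosine (filled) and the lower cytosine (open) of each of the 22 pairs (rows, ordered by pooled difference) in each of the 12 libraries, coloured by tissue, with the pooled levels as black ticks. Filled and open points overlap in 2 rows only, AGKD04009687.1 and CM003287.1 pair 1 (6344050).

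The pair with the lowest single value was AGKD04009687.1, 8394 to 8395. Its lower, forward cytosine was methylated in 12.0% to 44.8% of reads in 11 libraries and in 92.9%, 13 of 14 reads, in pituitary T1 replicate 1, where the higher cytosine was at 100.0%. Its pooled levels were 32.9% and 84.5%. The other pair whose libraries overlapped was CM003287.1 at 6344050, where the higher cytosine was at 40.6% in ovary T1 replicate 1 and the lower at 42.9% in pituitary T4 replicate 1.

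The choice was then repeated on the 6 T1 libraries alone and read in the 6 T4 libraries, which come from other fish. The T4 levels had no part in that choice, but all pairs had to be listed in all 12 libraries. Pairs within a locus are not independent. In T1, 23 pairs differed by 50 points or more. Of these, 21 (91.3%) also differed by 50 points or more in T4, in the same direction, against 24 of all 37090 eligible pairs (0.0647%). All 23 kept their direction, and their T4 differences ran from 34.7 to 91.5 points with a median of 63.8. The 2 that fell short were CM003282.1 at 1035994, with 58.0 points in T1 and 42.1 in T4, and CM003283.1 at 29951294, with 51.0 and 34.7. Chosen in T4 and read in T1, 21 of 24 pairs (87.5%) did so. The 3 others were CM003287.1 at 6344050, with 61.3 points in T4 and 46.8 in T1, AGKD04475122.1 at 129, with 50.7 and 19.4, and CM003283.1 at 13534892, with 51.7 and 26.1 in favour of the reverse cytosine.

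**Figure D3:**
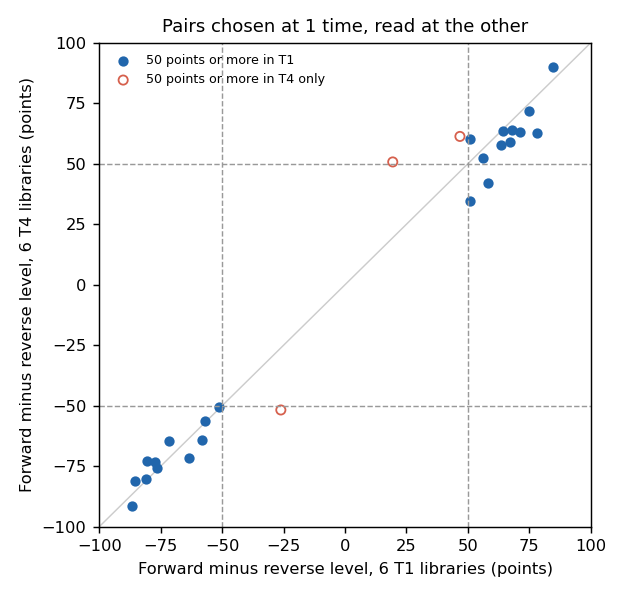
Forward minus reverse pooled level (percentage points) in the 6 T1 libraries (x axis) and the 6 T4 libraries (y axis) for the 26 pairs that differ by 50 points or more in either. All points lie in the lower left or upper right, with 1 direction at both times, and 21 of the 23 filled points are also beyond the dashed 50-point lines in T4.

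Whether the strand difference belonged to the fish or the tissue was asked with a limma moderated F test over all 37090 eligible pairs. It used the forward minus reverse level in points, for 5 fish codes and 3 tissues in 10 libraries. Fish code T4F2 had only pituitary T4 replicate 1, so that fish cannot be told apart from its library. Of the 22 pairs, none differed between fish at a Benjamini-Hochberg adjusted p under 0.05 (0% of eligible pairs called), and 2 had an unadjusted p under 0.05, against 4.31% of eligible pairs. These were CM003279.1 at 5817659 and AGKD04014909.1 at 17405, each with a limma adjusted p = 0.959. For tissue, none of the 22 passed either (0% of eligible pairs called), and 3 had an unadjusted p under 0.05, against 5% of eligible pairs. They were AGKD04014909.1 at 17405 and CM003298.1 at 47573996 and 47574008, each with a limma adjusted p = 0.913. The CM003298.1 pairs share a locus and are not independent. No pair among the 22 or the rest passed in T4 against T1 by limma in pituitary, ovary or liver (0% called in each). Unadjusted p was under 0.05 for 0, 2 and 2 of the 22, against 4.34%, 6.46% and 5.10% of eligible pairs. A p above the threshold does not show that fish, tissues or times were alike. At CM003279.1, 5817659, the strand difference was 23.1 points in the only library of T4F2. In the other libraries of the fish fit it was 55.9 to 75.7 points.

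The spread of the strand difference over the 12 libraries was set beside the spread that counting reads alone gives. Its SD had a median of 10.97 points over the 22 pairs, and the counting SD, from the pooled levels and the reads of each library, a median of 10.7. The ratio had a median of 1.11, against 1.03 for other eligible pairs. It was over 1.5 in 6 of the 22 pairs and in 3.53% of the others. Those 6 pairs were AGKD04009687.1 at 8394 (ratio 1.66), CM003287.1 at 6344050 (1.66), CM003291.1 at 65938511 (1.54) and the 3 pairs of CM003298.1 (1.51, 2.20 and 2.01). The CM003298.1 pairs lie within 17 bp with nearly the same reads on each strand, so they are not independent. The mean absolute difference between 2 libraries, over the 22 pairs, was 11.2 to 19.2 points for 6 comparisons of different tissues of the same fish code, 9.30 to 16.6 for 13 of the same tissue in other fish and 7.65 to 21.9 for 26 of other tissue and other fish. These ranges overlapped throughout, and they came from the 10 libraries of the comparison between fish. For other eligible pairs the 3 ranges were 10.8 to 11.9, 10.3 to 12.1 and 10.75 to 12.1 points. Those are means over many more pairs, so their widths cannot be set against those of the 22.

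The CM003298.1 locus held 3 pairs in 17 bp, from 47573993 to 47574009. Its forward cytosines were at 4.40%, 3.14% and 3.81% and its reverse cytosines at 87.7%, 83.7% and 80.3% when pooled. The reverse, higher cytosine was lower in liver. At 47574009 it was 42.9%, 66.7%, 53.8% and 41.7% in the liver libraries, T1 before T4, and 81.2% to 96.3% in the 8 others, with no overlap. At 47573997 it was 57.1%, 64.7%, 78.6% and 28.6% in liver and 83.3% to 100.0% elsewhere, again without overlap. At 47573994 the liver values of 50% to 88.9% overlapped the other 8, which were 79.2% to 100.0%. The lower cytosine did not exceed 15.0% at any of the 3 pairs in any library. In the test between tissues the pair at 47574008 had the smallest unadjusted p of the 22, and its limma adjusted p was 0.913. These tissue values were picked out after they were seen, and they did not pass over all eligible pairs.

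At the first CM003287.1 locus, pairs 39 bp apart at 6344050 and 6344089, the higher cytosine differed between libraries. At 6344050 it was 46.7% in liver T1 replicate 1, 40.6% and 60.7% in the ovary T1 libraries and 55.0% in pituitary T1 replicate 1, and 76.7% to 96.7% in the other 8. The titles code 3 of these 4 libraries as fish T1F3 and ovary T1 replicate 1 as T1F1. These libraries were picked out after their values were seen. In the test between fish, which left out the ovary T1 libraries, this pair did not pass (limma adjusted p = 0.959). At 6344089 the 3 lowest values, 36.8%, 38.5% and 51.7%, were in liver T1 replicate 1 and the ovary T1 libraries, while pituitary T1 replicate 1 had 75.0%. The lower cytosines were at 4.17% to 42.9% and 0% to 31.2%. Between T4 and T1 in ovary the mean strand difference at 6344050 was 68.6 against 28.2 points, a difference of 40.4 ± 15.7 (SE, limma adjusted p = 0.735, n = 2 libraries a group), which did not pass.

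**Figure D4:**
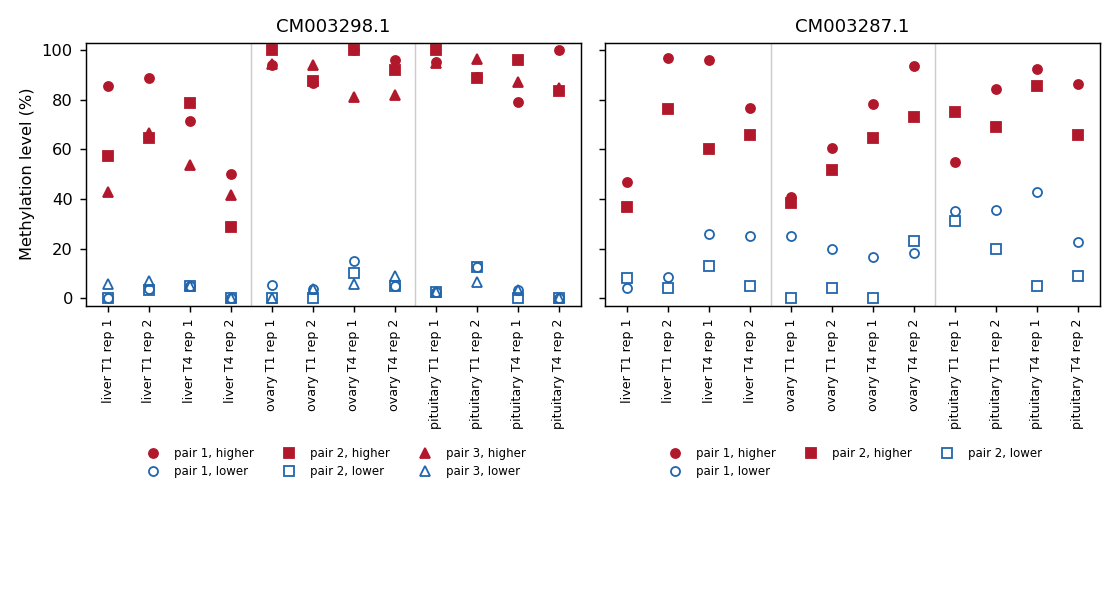
Methylation level (y axis, %) of the higher (filled) and lower (open) cytosines in each of the 12 libraries (x axis) for the 3 pairs of CM003298.1 and the first 2 pairs of CM003287.1 (6344050 and 6344089). Most filled points of CM003298.1 are lower in the 4 liver libraries, and its open points are at or under 15.0%. Open points of CM003287.1 reach 42.9%.

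In the other 3 loci with more than 1 pair, the rule set both pairs to differ and they did so in the same direction. At CM003287.1, 34435723 to 34435730, forward levels were 95.8% and 92.4% and reverse levels 25.6% and 25%. The reverse level at 34435724 was 0% in liver T1 replicate 1, 10% in pituitary T4 replicate 1 and up to 46.2% in ovary T1 replicate 1. At CM003281.1, 51513093 to 51513102, forward levels were 14.5% and 17.0% and reverse levels 89.8% and 93.1%. At AGKD04262784.1, 254 to 261, forward levels were 73.9% and 75.8% and both reverse levels 10.1%. Cytosines of the same strand at these loci had nearly the same reads, so the pairs within a locus are not independent.

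Nearby cytosines listed in all 12 libraries were read next, within 100 bp of each pair. There were 54 such cytosines, counted once each, and 22 of them were themselves cytosines of another of the 22 pairs. The other 32 had pooled levels of 73.1% to 94.4%, and the median over all eligible cytosines was 88.4%. Of these 32, 6 were listed with their partner. Counted for each pair separately, 50% of the neighbours of the 22 pairs were listed with their partner. For other eligible pairs it was 79.6%. A neighbour was given a strand by its own eligible pair, or where its read counts followed those of the forward or the reverse cytosine alone. Among the 37068 other eligible pairs, 5341 had no neighbour. In 6 of the 22 pairs there was no neighbour, all among the 11 single pairs. These were AGKD04009687.1 at 8394, AGKD04465720.1 at 193 (96.0% and 35.6%), CM003280.1 at 59598230 (12.0% and 79.9%), CM003281.1 at 37584498 (5.74% and 66.7%), CM003291.1 at 65938511 (4.70% and 72.2%) and CM003305.1 at 20630219 (68.9% and 14.7%). CM003280.1 at 59598230 was the next steadiest of the pairs within the coverage limit, with 58.1 to 88.0 points over the 12 libraries.

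In 2 single pairs the strand of the lower cytosine could be read beside it, and there it was high. At AGKD04014909.1 the reverse cytosine of the pair was at 5.90%. An eligible pair 93 bp away had 81.3% on the forward and 85.7% on the reverse strand. The neighbours at 17454, 17477 and 17493 were called reverse by read counts alone and were at 85.8% to 92.0%. Those calls are uncertain, since the eligible pair's forward cytosine also followed the reverse counts. Its reads differed from them by 0.191 of their total, against 0.654 for the forward counts. The pair itself had 153 forward and 288 reverse reads, against 251 and 224 at the eligible pair. At AGKD04017757.1, 4406 to 4407, the forward cytosine was at 32.8% (30.0 to 35.8) and the reverse at 89.4%, while an eligible pair 5 bp away had 87.3% on the forward and 88.6% on the reverse strand. In the 12 libraries its forward level was 22.9% to 46.2%, with a median of 32.9%. The forward cytosine had 984 reads and the one 5 bp away 1039, but the reverse cytosine had 850 reads against 2437. Of 27 other eligible pairs within 1000 bp, 1 pair 368 bp away had 33.9% forward and 73.6% reverse. Its difference of 39.7 points was in the same direction, under the threshold but beyond the 99th percentile. Another 2 went the other way beyond the 99th percentile, the pair at 4118 with 38.7% forward and 21.3% reverse and the pair at 4176 with 44.7% and 25.1%.

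In 3 single pairs the neighbours could be tied only to the higher strand or to neither, and they were high. At CM003285.1 2 neighbours with the reads of the forward cytosine were at 91.7% and 92.3%. They had 169 and 168 reads, like the forward cytosine's 160, while the reverse cytosine had 545. At CM003291.1 around 59423538, 3 neighbours with the reads of the reverse cytosine were at 77.0% to 91.7%. At CM003279.1, 5817659 to 5817660, with 77.3% and 14.4%, 3 forward neighbours were at 80.8% to 92.2% and 7 of unassigned strand were at 85.7% to 93.6%. No neighbour of these 3 pairs was tied to the strand of the lower cytosine.

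**Figure D5:**
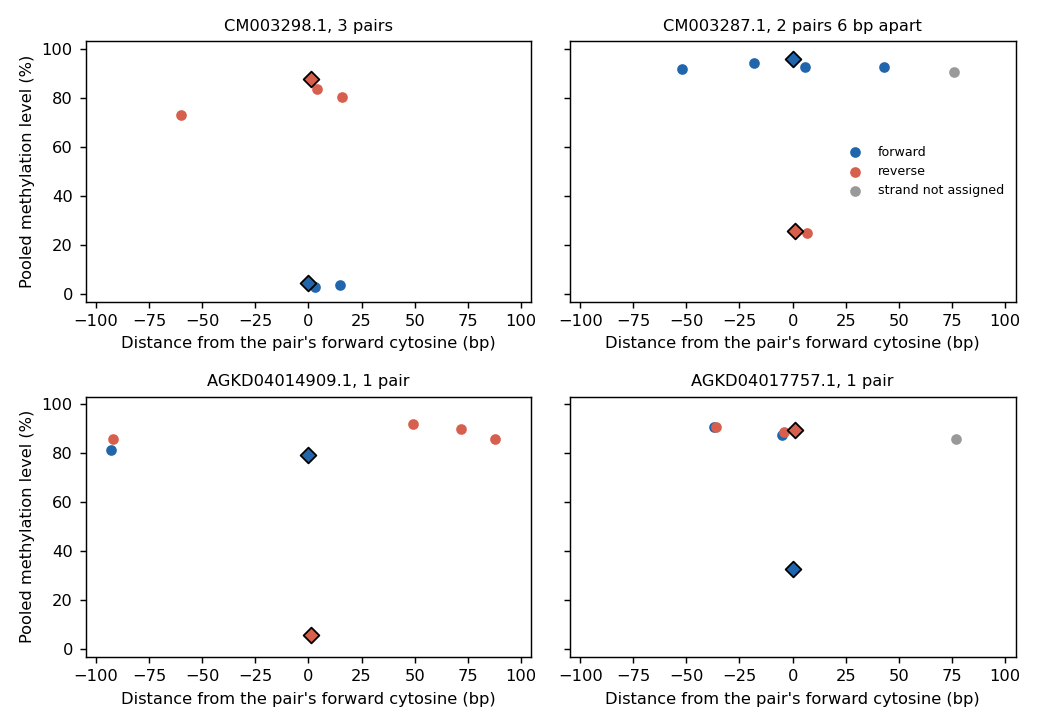
Pooled methylation level (y axis, %) of cytosines listed in all 12 libraries against distance from a pair's forward cytosine (x axis, bp), coloured by strand, with the pair itself as outlined diamonds. In the upper panels the low points are all cytosines of the chosen pairs themselves, so their levels were set by the rule. In the lower panels other cytosines of the lower strand are listed, and they are high 5 to 93 bp away. At AGKD04014909.1 the strand of the points right of the pair rests on read counts alone and is uncertain.

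The reads of the higher cytosine divided by those of the lower were 0.294 to 2.32 with a median of 0.963, and 12 pairs had fewer reads on the higher cytosine. The median fold between the strands was 1.40 for the 22 pairs and 1.32 for other eligible pairs. The higher cytosine had 1.95 to 49.4 times as many methylated reads as the lower. The rule asked for a gap between the 2 levels, so nothing is read from this ratio. The files hold no genotypes and no bases other than cytosine calls, so sequence variants at these positions were not tested.

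The number of pairs depended on which libraries had to list both cytosines. Without pituitary T1 replicate 1 the same rule gave 47 pairs among 47717 eligible pairs, all 22 among them. All of the 25 further pairs had the same direction in all 11 libraries. Those libraries chose them and the share over all 47717 pairs was not counted, so nothing is read from this. None had both cytosines listed in pituitary T1 replicate 1, and 3 had a cytosine over 150 reads in another library. The 25 pairs lay on 12 sequences, and 17 of the pairs were on unplaced ones. Among the 37090 pairs eligible in all 12 libraries, 8033 were on unplaced sequences. That share was not counted for the 47717. Leaving out any other library gave 22 to 27 pairs, with 21 or 22 of the original ones.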

How the data were processed

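The deposited files give total and methylated read counts per cytosine, with a minimum of 10 reads. Per the submitters' processing notes the authors used Trim Galore 0.5, BS-Seeker2 2.1.8, Bowtie2 and Picard. Reads were aligned to ICSASG_v2 and duplicates marked. From these counts, levels were methylated over total reads. They were pooled over libraries by summing reads, so deeper libraries weigh more. Wilson intervals cover counting error only, and reads that passed duplicate marking need not be independent molecules.

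Strand differences were fitted with limma 3.58.1 in R 4.3.3, and p-values adjusted over all 37090 eligible pairs. The fit between fish and tissues used 10 libraries, and T4 against T1 used 12 in 6 groups. The scripts were also run on simulated reads. That outcome is not given here, so how large a difference these fits could find is not stated. For fish and tissues, p-values rest on the spread left after both, with 3 residual degrees of freedom. For T4 against T1 they rest on the spread between libraries of a group, pooled over the 6 groups, with 6 degrees of freedom. limma moderated both with the spread over all eligible pairs. Libraries of a group carry different fish codes. Some fish codes recur in other groups, and the T4 against T1 fit treated those libraries as independent.

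The rule for pairs and the lists were chosen with earlier results of these data known. Pairs named by rule were the 3 with the largest difference in each direction, the 3 with the smallest range, both with at most 3 times the median coverage in every library, those with the smallest p where adjusted p passed, and the 2 on each side of the threshold. The remaining pairs were named after their values were seen, to account for all 22. Gene annotation of another assembly was not used.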

Additional observations from a re-analysis of the deposited data

Results flagged for a closer look

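In each tissue, with its 4 libraries, the strand difference of each of the 22 pairs was examined for a library far from the other 3, which gave 66 groups. Chance flags about 1 in 20 such groups, and 2 stood out. At CM003280.1, 59598230, ovary T1 replicate 1 had a difference of 88.0 points, against 60 to 64.4 in the other ovary libraries. At CM003285.1, 13148440, liver T4 replicate 2 had 97.6 points, against 80.4 to 82.9 in the other liver libraries.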

How the results depend on the processing

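The 22 pairs became 34 at 40 points. There was 1 where both cytosines had to have 20 reads in every library (3390 eligible pairs). There were 11 where coverage was limited to 3 times the median (23657 eligible pairs). In an alternative chosen after seeing the data there were 219 of 350008, where both cytosines had to be in 6 or more files. Leaving out a library gave 22 to 47 pairs. The other alternatives, 60 points, the mean of library levels and chromosome sequences, stayed within 1.5 times the 22. The share of pairs chosen in T1 that differed again in T4 was 69.6% at 60 points and 100% for the only pair with 20 reads throughout. The limma tests between fish, tissues and times gave 0 of the 22 pairs in all 84 alternative fits, and no eligible pair passed in any. These counts of 0 do not show that fish, tissues or times were alike. The smallest adjusted p of any of the 22 was 0.491. With the replicate number as a replicate block, 0 pairs were called in pituitary, ovary and liver, as without it. The numbers do not pair the libraries, since T1 and T4 fish are different animals. Deviations of same-numbered T1 and T4 libraries correlated at 0.0111, -0.00474 and 0.00535 in these tissues. These values cannot decide on a pairing, because the spread was close to counting error (median ratio 1.03 for other eligible pairs). A level from 10 reads moves by 10 points with each read, and this limits single-library values.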
